A study of Mus musculus with 2 samples.

Results

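In TH2 cells, 429 distal sites with a high read density after precipitation with an antibody against Gata3 held an AP-1 sequence and no full GATA sequence close to their centre. They made up 5.31% of the 8081 sites lying 1 to 100 kb from the nearest protein-coding gene start, and 10800 sites were found in all on chromosomes 1 to 19. The tallest of them lay nearest to *Eml4*, *Arhgap26*, *Zfp36l2*, *Padi1* and *Wdpcp*. Others lay nearest to genes on lists of T cell function, such as *Ikzf1*, *Ets1*, *Csf1* and *Il7r*. Of listed genes nearest to any distal site, 22 of 200 had one of these 429, close to the 416 of 4643 among all genes. Although the full GATA sequence was absent by selection, 327 of the 429 sites (76.2%) held 1 of 3 close relatives of it within 100 bp, against 46.8% of all distal windows with AP-1 and no GATA. Sites with neither AP-1 nor GATA also stood above their windows, by less, at 65.6% against 49.4%. The 3 relatives were picked after values had been seen.

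The study profiled Gata3 binding by ChIPmentation, in which chromatin is immunoprecipitated and then cut by a transposase that adds the sequencing adaptors. There was 1 group of 2 libraries, numbered 1 and 2 in the labels, from splenic mouse TH2 cells expanded in vitro and precipitated with the anti-GATA3 antibody D13C9. Per the study's methods, such cells are obtained by stimulating naive CD4+ T cells through CD3 and CD28 with IL-2, IL-4 and an antibody to interferon-γ. The extraction protocol in the labels names ILC2 instead, and age and genotype of the mice for these 2 libraries are not in the labels. Nothing in the labels says that the libraries came from separate cultures or animals, and their reads came from different sequencing instruments, so that library and run cannot be told apart. No second condition and no input or IgG library was analysed here, so no test was made, and Gata3 binding and open chromatin that yields reads without it cannot be told apart at any site. As a check of the cell type, 5 of 7 T cell genes had at least 1 site within the gene or 10 kb upstream (12 distinct sites, among them 4 at *Cd4* and 4 at *Gata3*). *Cd5* and *Cd28* had 0. The neighbouring genes *Cd3e*, *Cd3d* and *Cd3g* had 1, 3 and 3, some of them the same sites, and *Gata3* encodes the precipitated factor. The share of all genes with a site in such a region was not computed. In the same regions 1 of 6 B cell genes (*Ebf1*), 1 of 6 myeloid genes (*Cd14*) and 0 of 7 genes of other tissues had a site. No list of ILC2 genes was used, so the check was not made against the ILC2 named in the protocol.

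The sites were chosen by their read count, their position and their sequence. The genome (GRCm38) was tiled in bins of 200 bp, and 5′ ends of reads, moved 100 bp towards the 3′ end, were counted in each bin and scaled to the reads counted (RPM, the field's usual scaling). A site was a run of touching bins with at least 0.8 RPM in both libraries, which required 32 reads in library 1 and 20 reads in library 2. Its centre was the middle of the bin with the highest value in the lower library, and its height is that lower RPM. Sites with TGASTCA (S for C or G) and without WGATAR (W for A or T, R for A or G) within 100 bp of the centre, on either strand, were kept. Heights are therefore given as a description, with no test.

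AP-1 factors are dimers of basic leucine zipper proteins of the Fos, Jun, ATF and BATF families, which accumulate or become active when T cells are stimulated through the T cell receptor and costimulatory receptors. They bind TGACTCA and its reverse complement TGAGTCA, and in lymphocytes they often do so beside NFAT or IRF proteins on composite sequences. Gata3 is a zinc finger factor that is required for TH2 differentiation and recognises WGATAR. A Gata3 antibody can also recover DNA that Gata3 contacts through other proteins, or through sequences that depart from WGATAR.

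The following stretches show the AP-1 match at the tallest sites and at sites nearest to genes of T cell function. All are read from GRCm38, plus strand, with 27 bases either side of the match, and capitals mark TGASTCA. Where the stretch reaches past the 100-bp limit and holds WGATAR, that match is in capitals as well, as at *Galnt3* and *Cyp24a1*.
Eml4, chr17:83312593-83312653: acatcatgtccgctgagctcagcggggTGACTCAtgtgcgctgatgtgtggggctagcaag
Zfp36l2, chr17:84116407-84116467: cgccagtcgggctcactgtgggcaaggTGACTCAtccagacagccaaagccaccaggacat
Wdpcp, chr11:21547307-21547367: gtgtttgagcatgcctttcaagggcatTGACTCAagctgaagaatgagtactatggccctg
4930469K13Rik, chr11:34112167-34112227: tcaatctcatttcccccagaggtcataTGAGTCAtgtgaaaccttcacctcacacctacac
Galnt3, chr2:66184962-66185022: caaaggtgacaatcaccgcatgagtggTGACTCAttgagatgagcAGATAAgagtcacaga
Cyp24a1, chr2:170503556-170503616: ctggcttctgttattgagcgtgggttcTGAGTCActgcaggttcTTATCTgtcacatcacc
Ikzf1, chr11:11725753-11725813: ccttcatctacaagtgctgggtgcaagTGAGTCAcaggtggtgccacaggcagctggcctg
Ets1, chr9:32726597-32726657: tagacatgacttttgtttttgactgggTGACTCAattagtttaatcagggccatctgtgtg
Csf1, chr3:107796634-107796694: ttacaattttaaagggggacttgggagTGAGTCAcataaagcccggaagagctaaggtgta
Il7r, chr15:9523834-9523894: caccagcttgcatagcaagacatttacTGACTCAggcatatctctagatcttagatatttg

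Each of the next 4 carries an extended AP-1 sequence, which is shown because it names a partner or a related factor. The letters of the extension are in capitals with the match. *Frzb* has GAAA directly before AP-1 when read on the minus strand, an arrangement used by BATF with IRF factors. *Atxn7l1* has the spaced form of the same composite, TTTC ending 4 bases before AP-1, again on the minus strand. *Rab10* has GGAAA ending 3 bases before AP-1, the spacing of NFAT with AP-1. *Thy1* has TGC directly before AP-1, which extends the match towards the element bound by BACH and MAF proteins.
Frzb, chr2:80462003-80462063: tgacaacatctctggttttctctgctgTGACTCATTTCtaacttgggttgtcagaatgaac
Atxn7l1, chr12:33160605-33160665: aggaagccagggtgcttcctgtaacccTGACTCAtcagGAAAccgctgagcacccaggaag
Rab10, chr12:3323421-3323481: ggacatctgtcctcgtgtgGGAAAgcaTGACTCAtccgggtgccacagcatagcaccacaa
Thy1, chr9:44048805-44048865: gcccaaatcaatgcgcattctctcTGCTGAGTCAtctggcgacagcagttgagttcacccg

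In the last 3, capitals mark instead the relatives of the GATA sequence described further on, and the AP-1 match occupies bases 28 to 34, in lower case except for the base it shares with AGATCT at *Ifrd1*.
Padi1, chr4:140867537-140867597: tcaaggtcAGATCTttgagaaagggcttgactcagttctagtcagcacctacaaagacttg
Anapc4, chr5:52910219-52910279: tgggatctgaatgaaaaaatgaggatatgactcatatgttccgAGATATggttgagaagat
Ifrd1, chr12:40244010-40244070: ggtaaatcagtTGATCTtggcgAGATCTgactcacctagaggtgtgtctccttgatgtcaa

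Library 1 held 39287837 counted reads and library 2 held 24084150 counted reads on chromosomes 1 to 19. The tallest site, 38.2 kb upstream of the start of *Eml4* (a microtubule-binding protein) and between genes, had 187 reads in library 1, or 4.76 RPM with a 95% exact Poisson interval of 4.10 to 5.49. It had 139 reads in library 2, or 5.77 RPM with an interval of 4.85 to 6.815, so the intervals of the libraries overlapped. These intervals, like the binomial ones given for shares, cover counting error only. The site of *Zfp36l2*, which encodes an mRNA decay factor of lymphocytes, had 181 and 128 reads (4.61 and 5.32 RPM) and lay 71.5 kb downstream of the start, between genes. At *Wdpcp*, a gene of planar cell polarity and cilia, the site had 174 and 138 reads in libraries 1 and 2. *Padi1*, a peptidylarginine deiminase gene, had 176 and 118 reads. Over the 12 tallest sites, library 1 ranged from 3.79 to 4.76 RPM and library 2 from 3.74 to 5.77 RPM. Library 2 was the higher at 10 of these 12, whereas over all 429 sites it was the higher at 165. Of the 12, 7 lay in introns and 5 between genes, and 3 of the intronic sites belonged to a gene other than the nearest one by start. The *Galnt3* site (171 and 126 reads) lay in intron 28 of *Ttc21b*, the *Kcnmb1* site (164 and 125 reads) in an intron of *Kcnip1*, and the *Cyp24a1* site (155 and 102 reads) in an intron of *Pfdn4*.

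Height had a median of 1.25 RPM over the 429 sites, and 0.872 and 2.64 RPM at its 10th and 90th percentiles. The median site had 60 reads in library 1 and 32 reads in library 2. Across the 429 sites the log2 RPM of the libraries had a Pearson r of 0.86 and a Spearman rho of 0.81, which describe sites that had to pass in both. The ratio of library 2 to library 1 had a median of 0.944 (0.683 and 1.24 at the 10th and 90th percentiles), and 2 sites differed by over 2-fold. These were the sites nearest to *Btg2*, an antiproliferative gene (71 reads in library 1 and 21 in library 2), and *Jarid2*, a cofactor of Polycomb complexes (66 and 20 reads), both near the threshold in library 2 and named after their values were seen. In its top bin a site held a median of 8.23-fold the mean of the surrounding 10 kb in library 1 and 7.38-fold in library 2, and 413 sites held at least 3-fold in both. The sites just inside the threshold lay nearest to *N4bp2l1* (32 and 25 reads), *Nsmce1* (32 and 20) and *Olfr60* (32 and 23). Windows with the same sequence content just outside lay nearest to *Cep295nl* (31 and 23 reads), *Cd180* (31 and 21) and *Efhd1* (43 and 19).

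**Figure D1:**
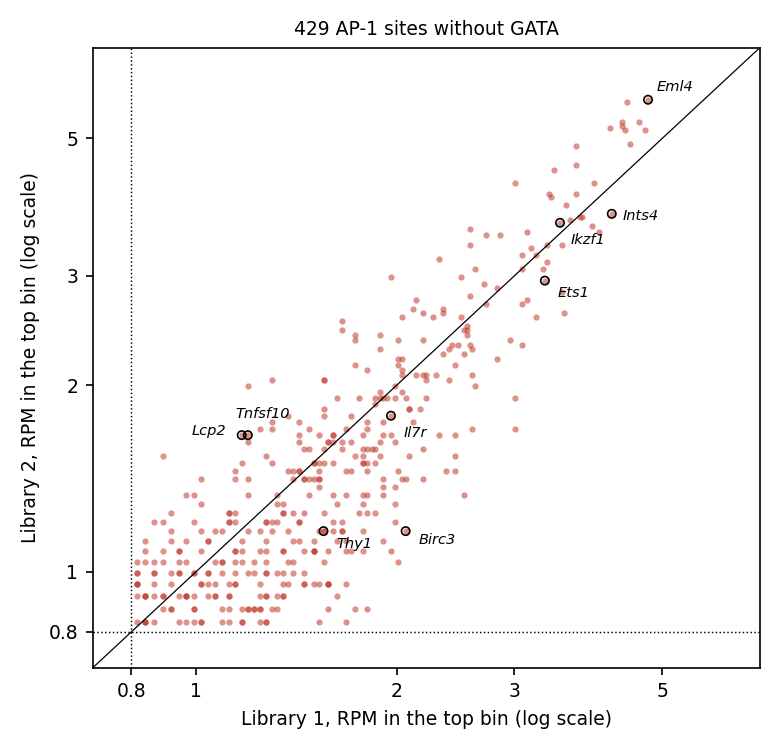
Read density of each of the 429 sites in its top 200-bp bin, library 1 on the horizontal and library 2 on the vertical axis, both in RPM on log scales; dotted lines mark the 0.8 RPM threshold and the solid line equal values. The tallest site, nearest to Eml4, had 4.76 and 5.77 RPM, and 165 of 429 sites lie above the line.

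Whether a window with AP-1 alone was recovered can be read against all windows of the same sequence class at the same distance from genes. Of 148584 distal windows with AP-1 and no GATA, 938 passed the threshold in both libraries, which is 0.631% (95% exact binomial interval 0.592% to 0.673%). The share was 1.62% for windows with GATA and AP-1, 0.379% for windows with GATA and no AP-1, and 0.185% for windows with neither. For all distal windows it was 0.276%, and for all bins of chromosomes 1 to 19 it was 0.199%. The intervals of the 4 sequence classes did not overlap. AP-1 windows passed most often where GATA was present too, and AP-1 windows without GATA passed more often than GATA windows without AP-1. Of all distal windows, 34.8% hold WGATAR and 3.31% hold AP-1, so these shares do not compare the sequences at equal frequency. Neighbouring bins of a wide site are counted separately in these shares and are not independent. A passing window need not hold the centre of its site. The 938 windows can therefore include bins of sites centred in another class, as 429 sites were centred in this class. Which windows can take uniquely placed reads was not measured, and repeat-masked bases are given in its place. Over 50% of bases were repeat-masked in 17.9% of AP-1 windows without GATA and in 26.4% of GATA windows without AP-1. Among windows below that limit the shares were 0.738% and 0.492%, in the same order.

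**Figure D2:**
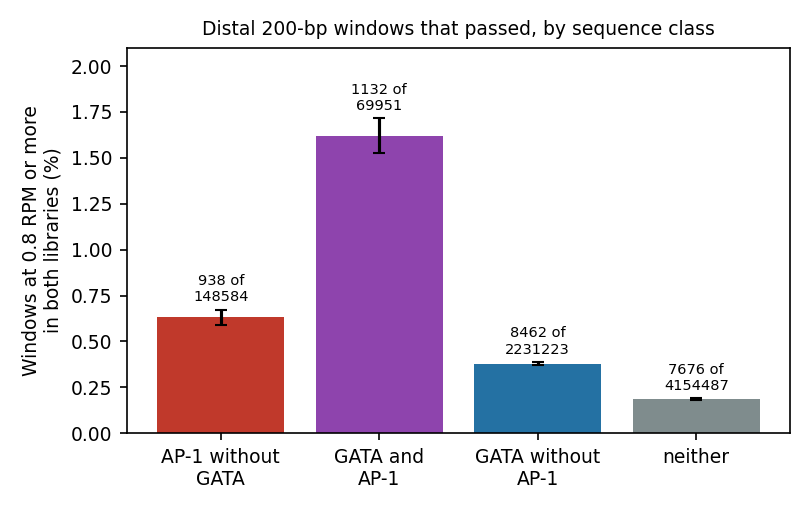
Percent of 200-bp windows 1 to 100 kb from a gene start that reached 0.8 RPM in both libraries, by whether AP-1 or GATA lies within 100 bp of the window's middle; bars are shares with 95% exact binomial intervals, and the text above gives the counts. AP-1 without GATA (0.631%) stands between GATA with AP-1 (1.62%) and GATA without AP-1 (0.379%).

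By class, the median height was 1.25 RPM for the 429 AP-1 sites without GATA, 1.45 RPM for the 771 sites with GATA and AP-1, 1.25 RPM for the 4633 GATA sites without AP-1 and 1.15 RPM for the 2248 sites with neither. From the lowest to the highest tier of height, the share of AP-1 sites without GATA among distal sites was 5.03% (127 of 2525 sites of 0.8 to 1 RPM), 5.32%, 5.29%, 5.48% and 6.27% (34 of 542 sites of 3 RPM or more). The intervals of the first and last tier overlapped, 4.21% to 5.96% and 4.38% to 8.66%. Sites with GATA and AP-1 went from 6.65% to 19.2% over the same tiers, and sites with neither from 32.4% to 13.8%. GATA sites without AP-1 went from 56.0% to 60.7%. The share of AP-1 sites without GATA thus moved little with height, as did that of GATA sites without AP-1, while the other classes moved over 2-fold. The tiers were set after values had been seen.

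**Figure D3:**
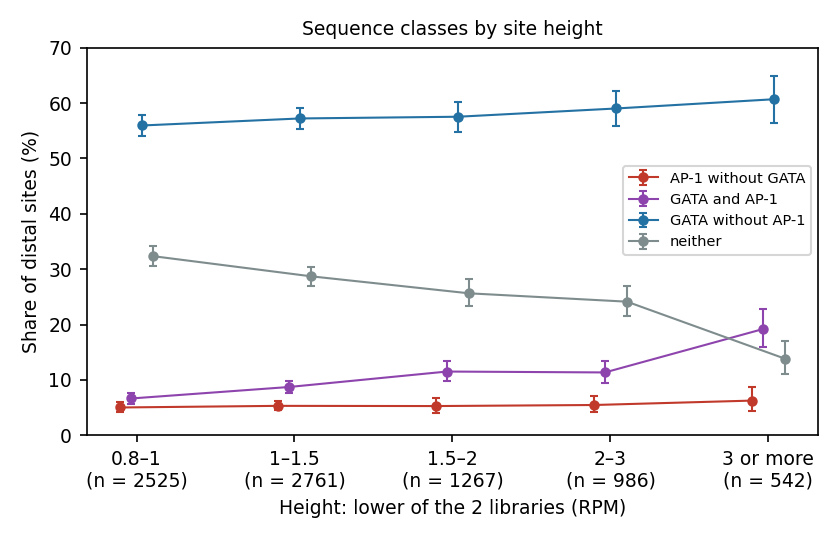
Share of the 4 sequence classes (percent of distal sites, 95% exact binomial intervals) in 5 tiers of height, the lower RPM of the libraries; the number of sites per tier is under each label. AP-1 sites without GATA stay between 5.03% and 6.27%, and sites with neither sequence go from 32.4% to 13.8%.

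The absence of WGATAR within 100 bp did not mean the absence of GATA letters. The tetramer GATA occurred at 251 of the 429 sites (58.5%, interval 53.7% to 63.2%), against 43.8% of all AP-1 windows without GATA. Of 3 hexamers that change the last bases of WGATAR, WGATTA occurred at 131 sites (30.5%, against 14.4% of windows), WGATCT at 138 sites (32.2%, against 16.2%) and WGATAY, where Y is C or T, at 186 sites (43.4%, against 26.5%). Forms with the first base changed stood closer to the windows: SGATAR occurred at 18.2% of sites against 13.8%, and SGATAY at 9.32% against 12.2%. Each was searched on both strands. These forms were picked after values had been seen, so the comparison is a description.

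At least 1 of these 3 hexamers was present at 327 sites (76.2%, interval 71.9% to 80.2%), against 46.8% of windows. The same hexamers written backwards (such as ATTAGW for the first of them), which have the same base composition, were present at 222 sites (51.8%, interval 46.9% to 56.6%), against 45.6% of windows. One by one they differed: TCTAGW stood at 19.1% (15.5% to 23.2%) against 12.7%, the backward WGATTA at 18.9% (15.3% to 22.9%) against 14.2%, and YATAGW below its windows at 24.9% against 28.2%. Read the other way round, 0.863% of AP-1 windows with a GATA-like form passed the threshold and 0.428% (338 of 79042) of those without one. For the reversed letters these shares were 0.673% and 0.597%. Sites with neither AP-1 nor GATA held a GATA-like form at 65.6% (63.6% to 67.5%), against 49.4% of their windows, and a reversed form at 47.7% against 47.2%. The direction was thus shared with them, and the gap was smaller. Of windows with neither, 0.204% passed with a GATA-like form and 0.166% without. Sites with a GATA-like form had a median height of 1.30 RPM, and the 102 sites without any had 1.17 RPM. The reversed forms went with a like gap, 1.35 RPM with and 1.204 RPM without. In 184 sites (42.9%, interval 38.2% to 47.7%) a GATA-like form overlapped the AP-1 match or began or ended within 30 bases of it, against 20.4% of windows. Part of that gap repeats how often a form is present at all: counting those that hold a form within 100 bp of the centre, it was this close at 177 of 327 sites (54.1%, interval 48.6% to 59.6%) and in 41.2% of windows. The *Ifrd1* site, with 143 and 89 reads in libraries 1 and 2, has AGATCT sharing its last base with TGACTCA. The *Anapc4* site, with 148 and 90 reads, has AGATAT soon after the match.

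A full WGATAR reaching past the 100-bp limit was also frequent, with distances taken from the centre to its farther end. It lay within 250 bp of the centre at 241 sites (56.2%, interval 51.3% to 60.9%), against 44.9% of all AP-1 windows without GATA, and within 500 bp at 357 sites (83.2%, against 78.7%). Sites with neither sequence had it within 250 bp at 66.2%. The median distance to the nearest WGATAR was 218 bp, and 167 of the 429 sites held one elsewhere in their own run of bins. Height did not go up with closeness: the median was 1.204 RPM for the 241 sites with WGATAR within 250 bp, 1.33 RPM for the 188 without and 1.49 RPM for the 72 sites with none within 500 bp. The *Galnt3*, *Zfp36l2* and *Cyp24a1* sites had it 110, 103 and 104 bp from the centre, whereas the nearest one at *Ints4* was 695 bp away. *Ints4* encodes a subunit of the Integrator complex, and its site in intron 4 had 165 and 91 reads.

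Among sequences of other T cell factors, RUNX (TGYGGT, the sequence of a family that acts throughout T cell development) occurred at 100 sites, or 23.3% (19.4% to 27.6%), against 17.3% of AP-1 windows without GATA. The other classes stood above their windows too, with 18.8% against 15.02% for sites with GATA and AP-1, 19.5% against 14.7% for GATA without AP-1 and 22.02% against 16.8% for neither. NF-kB sequences, searched by their 10-base consensus, occurred at 14 sites (3.26%, interval 1.80% to 5.42%, against 1.80%). NFAT (TGGAAA) occurred at 18.9% against 17.8%, ETS (MGGAAGT, M for A or C) at 6.06% against 5.51%, TCF (CTTTGAW) at 6.99% against 7.21% and STAT (TTCYNRGAA) at 3.26% against 2.82%. For these 4 and for NF-kB the interval of the sites held the value of the windows. RUNX, ETS or NFAT was present at 178 sites (41.5%), against 36.1% of AP-1 windows without GATA. CTCF and the cyclic AMP element TGACGTCA were found at 0 of 429 sites, which allows a share of up to 0.856%, and each is rare, with 191 and 186 of the 148584 windows. AP-1 written backwards (ACTSAGT) occurred at 14.7% of sites and 12.7% of windows, against 3.06% of windows with neither AP-1 nor GATA. It can overlap the AP-1 match itself, so it is no check on composition. Over all 6604245 distal windows, RUNX occurred in 16.1%, NFAT in 19.7%, ETS in 5.33%, TCF in 8.62%, STAT in 2.89%, NF-kB in 1.59%, AP-1 in 3.31% and WGATAR in 34.8%. A match is a run of letters and does not show that a factor was there.

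**Figure D4:**
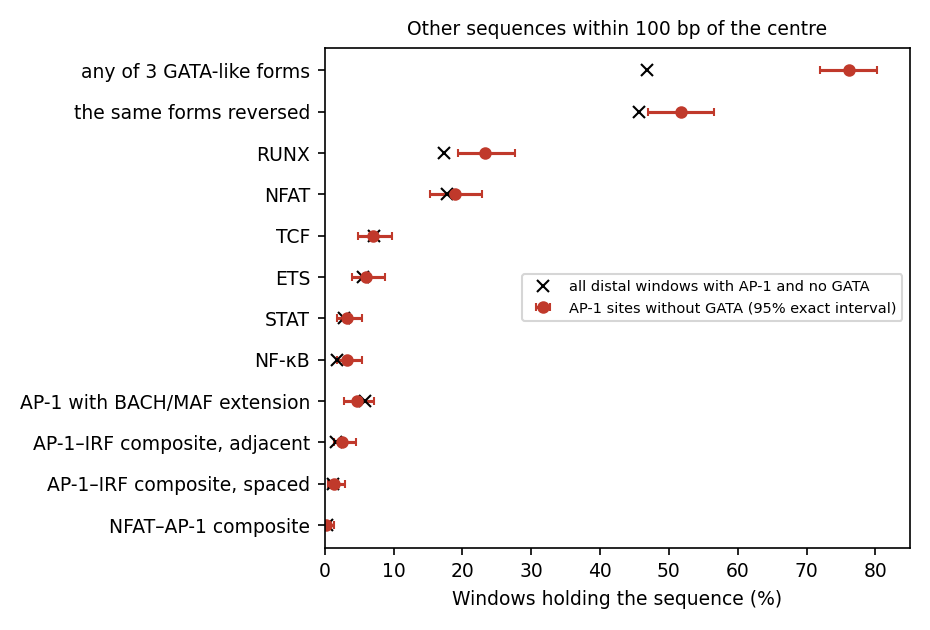
Percent of the 429 sites (circles, with 95% exact binomial intervals) and of all 148584 distal windows with AP-1 and no GATA (crosses) that hold another sequence within 100 bp of the centre. The 3 GATA-like forms, picked after values had been seen, stand apart (76.2% against 46.8%). RUNX is at 23.3% against 17.3%, an order that the other classes share, and the composite AP-1 sequences are at 4.66% or less.

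Extended AP-1 sequences were rare. Together the 4 extensions occurred at 38 sites (8.86%), against 8.73% of AP-1 windows without GATA. The composite with IRF was found in its adjacent form at 11 sites (2.56%, interval 1.29% to 4.54%, against 1.60% of windows) and in its spaced form at 6 sites (1.40%, against 1.18%). The tallest of the adjacent form lay 14.5 kb from the start of *Frzb*, a secreted Wnt antagonist, with 146 reads in library 1 and 117 in library 2. The NFAT composite occurred at 1 site, nearest to *Rab10*, a small GTPase of membrane traffic, with 57 and 26 reads. The BACH and MAF extension occurred at 20 sites (4.66%, interval 2.87% to 7.11%, against 5.83% of windows). They include the site in intron 2 of *Arid5b*, a chromatin cofactor, with 149 and 90 reads, and that nearest to *Bcl2l11*, which encodes the pro-apoptotic protein BIM, with 87 and 49 reads. A further site has this extension at *Thy1*, which encodes a surface glycoprotein of T cells, with 61 and 28 reads. At 23 sites AP-1 occurred in 2 copies. Their median height was 1.45 RPM, against 1.25 RPM for the 406 sites with 1 copy.

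The bases next to AP-1 went with the share that passed. Each match was entered once per strand, by the base directly before TGA. Of these entries, 0.795% lay in a bin that passed where the base was A (interval 0.731% to 0.864%), 0.710% with G, 0.575% with C and 0.518% with T (0.462% to 0.580%). Both entries of a match share its reads, so the intervals are too narrow. The share with A was the highest and that with T the lowest. The intervals of A and G (0.651% to 0.774%) overlapped, as did those of T and C (0.530% to 0.624%), so the order within each pair is not shown. As background, AP-1 proteins are known to prefer a purine at this position.

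By the rule the whole AP-1 match lay within 100 bp of the centre, and its place within that span is given as a description. Its centre was within 25 bp of the middle of the top bin at 129 sites (30.1%) and within 50 bp at 234 (54.5%), with a median distance of 43 bp. Where AP-1 occurred in several copies, the nearest was taken. The values for matches placed evenly in that span were not computed, so no central place is shown. The position of 5′ ends was then followed base by base around the 452 matches of the 429 sites, since bound protein can shield DNA from the transposase. In the 10 bp either side of the match centre the ends per base were 1.17 times those 30 to 100 bp away in library 1 and 1.18 times in library 2. At 151369 matches in AP-1 windows below the threshold the same values were 1.08 and 1.03. The profile had sharp maxima and minima on and beside the match in sites and in windows alike, and its highest position lay within the match in both. Over the 7 bases of the match itself the ends at the sites were 1.11 and 1.17 times those 30 to 100 bp away, and 1.001 and 1.06 times those 5 to 25 bp away. In windows below the threshold the ends over these bases were 0.973 and 0.949 times those 30 to 100 bp away, and 0.930 and 0.921 times those 5 to 25 bp away. Ends over the match were thus not fewer than in the flanks at the sites, and were slightly fewer in the windows. The sites were chosen by a high read count near the match, so the ratios at the sites follow in part from that choice. Ends 30 to 100 bp away were 1.37 and 1.35 times those 150 to 200 bp away at the sites. In the windows they were 1.02 and 1.03 times. Removal of duplicates also limits the ends per base. At 7555 WGATAR matches in GATA sites without AP-1, ends over the 7 central bases were not fewer either. They were 1.144 and 1.082 times those 30 to 100 bp away, and 1.15 and 1.135 times those 5 to 25 bp away. Whether protein was bound at the AP-1 matches was not tested.

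**Figure D5:**
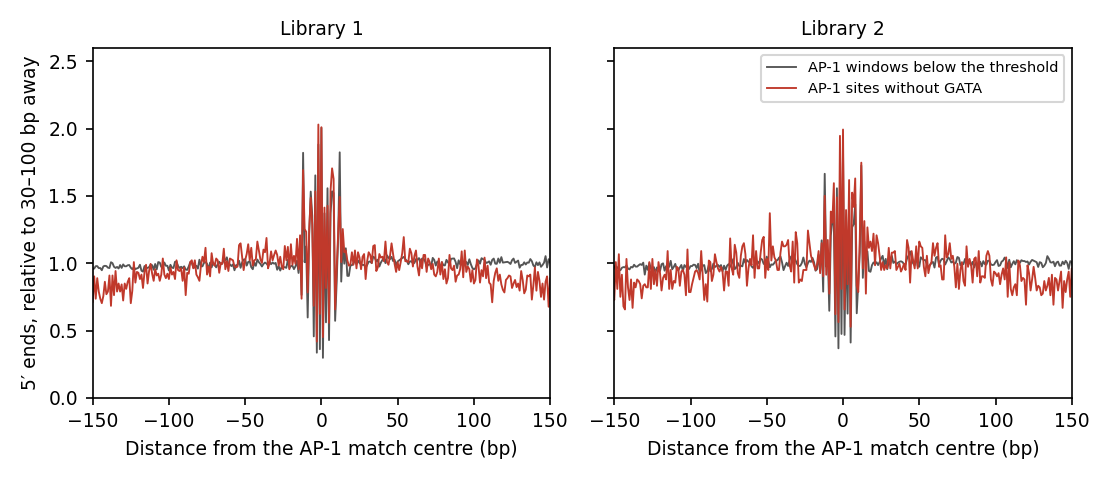
5′ ends of reads (as deposited, not moved) per base around the AP-1 match centre, in bp, divided by their mean 30 to 100 bp away; red, 452 matches at the sites, grey, 151369 matches in windows below the threshold, with library 1 on the left and library 2 on the right. Both sets show spikes on and beside the match, and the red lines fall off towards 150 bp.

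By position, 239 sites (55.7%, interval 50.9% to 60.5%) lay in introns of protein-coding genes, 171 (39.9%) between genes and 19 (4.43%) in exons. All AP-1 windows without GATA lay in introns in 47.2%, between genes in 47.3% and in exons in 5.49%. GATA sites without AP-1 lay in introns in 55.8%, so this was shared with them. The median distance to the nearest gene start was 24.3 kb, and 100 sites were over 50 kb away. A median site had 45.3% G and C, the same as all AP-1 windows without GATA. It was 2 bins long, 156 sites had 1 bin, and the longest had 11. Another site lay within 10 kb of 153 sites (35.7%), and one with GATA within 10 kb of 111 (25.9%, against 25.8% for GATA sites without AP-1).

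The 429 sites had 416 nearest genes, which is 2% of 20807 protein-coding genes on these chromosomes, and 22.3% of those genes were the nearest to some distal site. The nearest gene by start need not be the one a site acts on. Of 259 genes on 8 lists of T cell function, 22 (8.49%) were nearest to at least 1 of the 429 sites, while 77.2% were nearest to a distal site of any class. As 22 of the 200 listed genes with any site had one of this kind and 416 of 4643 did so in the whole annotation, the listed genes stood close to the rest once a site was present.

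Among transcription factor genes of T cells, 6 of 47 were nearest to an AP-1 site without GATA. *Ikzf1*, which encodes the lymphoid regulator Ikaros, had one 40.7 kb from its start in an intron, with 138 reads in library 1 and 88 in library 2 (3.51 and 3.65 RPM). *Ets1*, whose product acts in T cell activation, had one with 131 and 71 reads (3.33 and 2.95 RPM), 90.5 kb from its start. Both were thus among the taller sites, and their libraries were close to each other. *Pparg*, a nuclear receptor gene expressed in type 2 lymphocytes, had 2 sites, with 70 and 40 reads and with 35 and 25 reads. *Satb1*, a chromatin organiser of thymocytes, had 65 and 28 reads, *Runx2*, a RUNX family member, 54 and 25, and *Tbx21*, which encodes the TH1 regulator T-bet, 39 and 24. None of the 26 genes of the AP-1 family and its partners was nearest to such a site. Only 16 of them were nearest to a distal site of any class, too few to tell 0 from the share of 416 in 4643 genes given above.

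Of 31 cytokine genes, 3 had an AP-1 site without GATA. They were *Csf1*, the macrophage growth factor (132 and 76 reads, 36.2 kb away and between genes), *Tgfb3*, a TGF-β isoform (73 and 46 reads), and *Ccl17*, a chemokine that attracts TH2 cells (42 and 28 reads). The *Tgfb3* site lay 31.5 kb from that gene's start, in an intron of *Ttll5*. The site of *Csf1* was its only distal site of any class. Of 28 cytokine receptor genes, 2 had one, *Il7r*, which encodes the IL-7 receptor α chain (77 and 43 reads, 6.28 kb away in an intron), and *Crlf2*, which encodes the TSLP receptor (41 and 27 reads). The *Il7r* site was 1 of 9 distal sites nearest to that gene.

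Of 45 genes of T cell receptor signalling, 4 had such a site. *Themis*, needed for thymocyte selection, had 56 and 39 reads and *Lcp2*, which encodes the adaptor SLP-76, had 46 and 40. The *Lcp2* site lay in intron 4 of *4930469K13Rik*. *Dusp6*, a phosphatase of ERK, had 63 and 29 reads and *Pag1*, a membrane adaptor that recruits CSK, had 49 and 23. The *Dusp6* site held 2.895-fold the mean of the surrounding 10 kb in library 1 and 2.142-fold in library 2, below 3-fold in both. In RPM, library 1 was the higher at *Dusp6* (1.60 against 1.204) and *Pag1* (1.25 against 0.955) and library 2 at *Themis* (1.43 against 1.62) and *Lcp2* (1.17 against 1.66). Of 34 costimulation and checkpoint genes, *Cd44*, an adhesion and activation marker, had 71 and 51 reads and *Tnfsf10*, which encodes TRAIL, had 47 and 40. Of 28 migration and adhesion genes, *Cxcr4*, the CXCL12 receptor, had 58 and 41 reads, and *Thy1* is given above. Neither *Itgav* nor *Itgb3*, the integrin genes of the study, was nearest to such a site. From Gata3 ChIP-seq the study reports binding at the *Itgav* promoter and inside *Itgb3*. The rule used here leaves out centres under 1 kb from a gene start and centres with WGATAR within 100 bp, so it does not bear on that report. Of 20 survival and cell cycle genes, 3 had one, *Bcl2l11*, *Birc3* (81 and 28 reads) and *Bcl2* (35 and 29 reads). *Birc3*, an inhibitor of apoptosis, had 2.06 RPM in library 1 and 1.16 RPM in library 2, while *Bcl2*, which encodes a mitochondrial inhibitor of apoptosis, had 0.891 and 1.204 RPM. The *Birc3* site lay 1.085 kb from the gene start, close to the 1 kb limit of the rule.

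Few genes had more than 1 of these sites: 404 had 1, 11 had 2 and *Irf2* had 3. *Irf2* encodes an interferon regulatory factor that mostly represses transcription. Its tallest site, 17.6 kb from the start, had 135 reads in library 1 and 107 in library 2 (3.44 and 4.44 RPM). The others had 36 and 24 reads, just beyond the tallest one with a gap of 1 bin, and 41 and 23 reads, 51.2 kb from the start. Against the mean of the surrounding 10 kb, the former held 2.5-fold in library 1 and 2.154-fold in library 2. The latter held 3.405-fold and 2.919-fold, so neither reached 3-fold in both libraries. Groups of 3 sites within 200 kb also occurred at chr11:33939001-34112200, where *Kcnmb1* (164 and 125 reads), *Lcp2* and *4930469K13Rik* (171 and 128 reads) are the nearest genes, and at chr1:191190001-191385200, nearest to *Fam71a*, *Nenf* and *Ppp2r5a*.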

How the data were processed

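Gata3 ChIPmentation was measured in 2 libraries of TH2 cells. Alignment by the authors used Bowtie2 (2.3.5.1) and GRCm38, and they kept uniquely placed reads. They deposited each read's position, strand and mapping quality score, which ran from 22 to 44 and is no measure of binding. The submitters' processing notes also name MACS2 (2.1.2), whose output was not used here. Within a library 0 reads shared a 5′ end and strand, so duplicates had been removed, which limits tall sites. The tool is not given in the sources used here. Library 1 held 40526613 deposited reads and library 2 held 24970952.

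Sites were found as described above, with genes from GENCODE M21 and protein-coding transcripts for introns and exons. Shares have exact (Clopper-Pearson) and counts exact Poisson intervals. No test was made. Sites named are the 12 tallest, those nearest to listed genes, genes with several sites, the tallest of each AP-1 extension and those beside the threshold. *Anapc4* and *Ifrd1*, and the GATA-like forms, were chosen after values had been seen. The sites and gene lists were chosen with earlier results of these data known. No sequence is shown for some of the tallest sites. The site finding was tested on simulated data. Alternatives covered the threshold, bins, read position, motif distance, GATA sequence, libraries, mapping quality, gene starts and local background. Python 3.11.15, NumPy 2.4.6, SciPy 1.17.1, pandas 2.3.3 and Matplotlib 3.10.9 were used.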

Additional observations from a re-analysis of the deposited data

How the results depend on the processing

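No paired analysis was possible because a single condition was measured. The cause of the following changes was not tested beyond what each setting does by its construction. At 0.6 RPM there were 639 sites with a median height of 0.967 RPM, and 0.986% of AP-1 windows without GATA passed. At 1.2 RPM there were 236 sites with a median height of 1.70 RPM, and 0.324% of windows passed. Without any GATA tetramer within 100 bp, 178 sites remained, or 2.20% of distal sites, 0.569% of windows passed, and ends at the match were 1.196 times those of the flanks. The share of windows was 0.792% with motifs within 50 bp, 0.546% within 150 bp, 0.576% with at least 3-fold over the surrounding 10 kb and 0.738% in windows of which at most 50% is masked, the last added after values had been seen. With 5′ ends not moved, ends at the match were 1.21 times those of the flanks. With either library left out, the number of sites was 499 to 618, their share of distal sites 4.71% to 5.08%, the share of windows 0.753% to 0.924%, median height 1.25 to 1.27 RPM, ends at the match 1.17 times, and the ratio of libraries 0.759 to 1.01. The ratio of the passing shares with and without a GATA-like form, 2.02, ran from 1.81 (library 2 alone) to 2.14 (1.2 RPM). Moved bins, thinning of library 1 and mapping quality of at least 30 did not move the shares, height or ends at the match beyond their spread. Nor did all transcript starts, for which ends at the match were not computed. The GATA-like ratio was not computed under these. Under the same settings the number of sites, which has no spread, stayed within a fixed fold limit. The library ratio was held against the median counting interval of 1 site, 0.590 to 1.43. That interval is wide and held the ratio under all 13 alternatives. Depth limits the sites near the threshold, where 1 read in either library decides, and without an input library no site is shown to be bound.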
